A study of Mus musculus with 12 samples.

Results

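The 10 genes described here, Cd3e, Cd3g, Cd4, Cd8a, Cd5, Thy1, Pdcd1, Themis, Lck and Nkg7, are markers of T cells and NK cells. They were chosen by symbol from the 15846 genes of a table of mouse liver RNA sequencing, and all 10 were found. The 12 libraries, each labelled as a liver, came from C57BL/6 mice aged 5 months and formed 4 groups of 3. The labels do not say that each liver came from its own mouse, so n counts libraries and the spread between them may be technical. The groups were Shp hepatocyte knockout (labelled Shp Hep-/-, here KO) on HFCF, wild type (WT) on HFCF, KO on chow and WT on chow. HFCF is the labels' name for the test diet, and neither its makeup nor the driver of the hepatocyte deletion was given in the sources used here. The tissue was whole liver, so each value is a sum over hepatocytes and all other cells of the organ.

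T cells recognise antigen through a receptor whose signal runs through the CD3 chains, while the coreceptors CD4 and CD8 bring the kinase Lck to the complex. Themis is an adaptor of this pathway that developing T cells in the thymus need, and PD-1, the product of Pdcd1, is an inhibitory receptor of activated T cells. NK cells and cytotoxic T cells kill through secreted granules, in which Nkg7 is found. A healthy mouse liver holds both kinds of lymphocyte in small numbers among its hepatocytes.

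Libraries held 13967116 to 18324134 counts. Nr0b2, the gene that encodes Shp, stood at 0.210 to 1.01 CPM in the 6 KO libraries and at 22.4 to 53.4 CPM in the 6 WT libraries. CPM is the count scaled by library size and TMM factor. The 10 genes together took 150 to 293 counts of each KO library and 73 to 1139 counts of each WT library, so most of them were measured from few reads. A floor of 3 counts was 0.164 to 0.215 CPM, depending on the library, and covers counting error only.

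Of the 10 genes, 9 passed the filter on low counts and were tested. The filter needs at least 0.686 CPM in 3 libraries. Cd3e did not reach this in any library and was not tested. Cd3g, Cd8a, Cd5, Thy1, Pdcd1 and Nkg7 passed through KO libraries alone, so their being tested depended on the group where they were high. Cd4, Themis and Lck passed in both genotypes.

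Sequence upstream of the gene is shown for 4 members whose values set them apart: Themis, which moved against the others, Pdcd1, with the widest ratio between the genotypes, Cd5, with the same count in each KO HFCF liver, and Lck, the kinase of the pathway. Each is the 250 bases before a RefSeq start on GRCm38.p6, read 5′ to 3′ on the gene's strand, with capitals marking matches to the motifs listed after them.
Themis, chr10:28668110-28668359, plus strand: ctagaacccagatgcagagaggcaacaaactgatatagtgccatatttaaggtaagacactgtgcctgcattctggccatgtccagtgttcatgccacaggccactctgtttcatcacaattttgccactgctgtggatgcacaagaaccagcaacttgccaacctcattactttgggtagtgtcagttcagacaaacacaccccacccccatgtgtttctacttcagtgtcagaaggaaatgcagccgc
Pdcd1, chr1:94052554-94052803, minus strand: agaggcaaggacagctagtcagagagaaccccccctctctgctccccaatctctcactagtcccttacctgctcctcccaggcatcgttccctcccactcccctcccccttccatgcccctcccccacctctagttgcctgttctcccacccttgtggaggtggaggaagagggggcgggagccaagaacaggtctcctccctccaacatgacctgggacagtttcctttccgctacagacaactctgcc
Cd5, chr19:10738975-10739224, minus strand: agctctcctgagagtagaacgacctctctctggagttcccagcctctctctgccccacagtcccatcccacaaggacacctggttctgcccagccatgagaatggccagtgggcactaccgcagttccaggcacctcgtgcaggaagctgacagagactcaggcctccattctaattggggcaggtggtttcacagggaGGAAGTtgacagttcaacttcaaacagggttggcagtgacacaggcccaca
Lck, the more upstream of its starts, chr4:129573642-129573891, minus strand: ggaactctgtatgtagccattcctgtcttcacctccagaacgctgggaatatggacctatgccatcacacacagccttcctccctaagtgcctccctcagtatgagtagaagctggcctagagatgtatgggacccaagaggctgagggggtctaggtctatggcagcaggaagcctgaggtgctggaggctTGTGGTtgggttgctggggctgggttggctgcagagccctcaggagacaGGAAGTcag

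RefSeq promoters matched 8 of the 10 genes, all but Cd4 and Thy1. Both strands were searched for 6 motifs. These were the ETS core GGAAGT, the RUNX site TGTGGT, the GATA site AGATAA, the TCF site CTTTGA, the TATA box TATAAA and the DR1 element of nuclear receptors, which is AGGTCA repeated after 1 base of any kind. No pair of them overlapped in the printed windows. GGAAGT stands 51 bases before the start of Cd5 and 9 before that of Lck, and TGTGGT stands 58 before that of Lck. The windows of Themis and Pdcd1 hold none of the 6. Among all 32851 promoters, 19.7% hold GGAAGT, 14.045% TGTGGT, 9.99% AGATAA, 13.8% CTTTGA, 12.4% TATAAA and 0.033% the DR1 element. These matches describe the letters and were not tested as binding sites.

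Levels between genes were compared per length, in the authors' deposited FPKM. In KO HFCF livers, Cd3g led with a mean of 1.45 ± 0.49 FPKM (SD, n = 3), and Nkg7 followed with 1.07 ± 0.35 FPKM. Cd3e was lowest there with 0.259 ± 0.102 FPKM. The other 7 genes had means between 0.436 and 0.807 FPKM, and neighbours in this order lay within their spread. In WT HFCF livers the order was different, with Themis first at 4.70 ± 1.87 FPKM and the other 9 genes between 0.0115 and 0.327 FPKM. In KO chow livers Cd3g again had the highest mean, 1.19 ± 0.90 FPKM, and Themis the lowest, 0.210 ± 0.027 FPKM. In WT chow livers the highest means were 0.439 ± 0.384 FPKM for Cd3g, 0.321 ± 0.112 FPKM for Themis and 0.320 ± 0.147 FPKM for Nkg7, which did not differ beyond their spread.

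**Figure D1:**
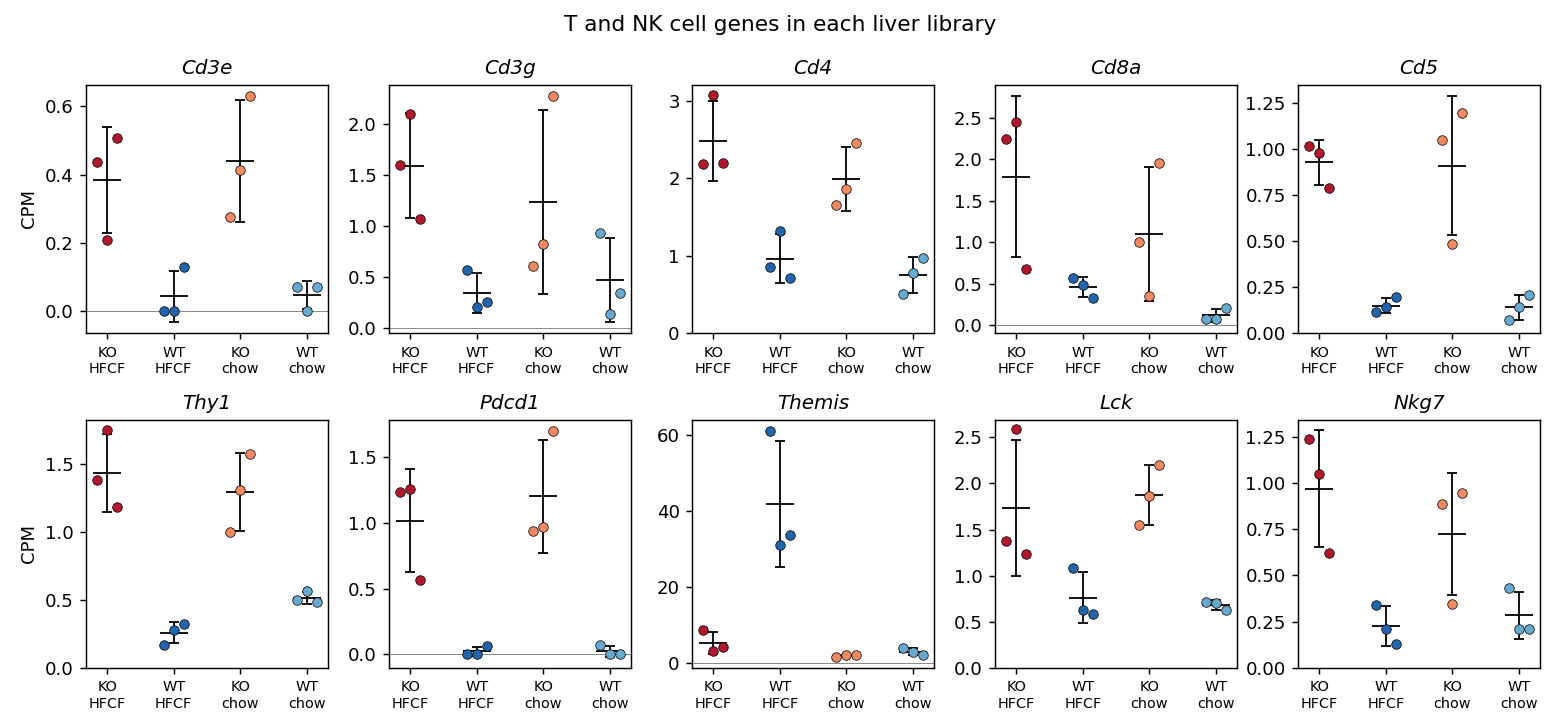
The 10 genes in each of the 12 liver libraries, in CPM on a linear axis of its own for each gene; points are livers, horizontal bars the mean and whiskers the SD over 3 livers. Themis reached 31.0 to 61.1 CPM in WT HFCF livers, where the other 9 genes stayed at or below 1.32 CPM; for those 9, the KO points lie mostly above the WT points on both diets.

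On HFCF, 8 of the 9 tested genes were higher in KO than in WT livers and 1, Themis, was lower. The receptor chain Cd3g, the coreceptors Cd4 and Cd8a, the surface proteins Cd5 and Thy1, the inhibitory receptor Pdcd1, the kinase Lck and the granule gene Nkg7 all rose. Of all 14736 genes tested in this comparison, 10.6% were called higher and 8.52% lower at an edgeR adjusted p under 0.05. The median log2 fold change was 2.00 over the 9 genes and 0.02 over all tested genes. Cd3g, Cd8a, Cd5, Thy1, Pdcd1 and Nkg7 were tested only through KO libraries, so this count and median lean towards KO by the filter. Of the genes that passed it in both genotypes, Cd4 and Lck rose and Themis fell. For all 8 genes that rose, the 3 KO livers lay above the 3 WT livers, as they did for 18.5% of tested genes. In bulk liver, fewer cells of a type and less RNA per cell cannot be told apart.

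Of the CD3 chains of the receptor, Cd3g rose and Cd3e was not tested. Cd3g (ENSMUSG00000002033, chromosome 9, 44969572 to 44980431, minus strand) had 22, 30 and 19 counts in KO HFCF livers and 10, 3 and 4 counts in WT HFCF livers. The groups did not overlap, and the log2 fold change was 2.12 ± 0.62 (± is the standard error of edgeR's fit here and below; edgeR adjusted p = 0.0280). Cd3e (ENSMUSG00000032093, chromosome 9, 44998740 to 45009627, minus strand), the chain most often used to define T cells, had 6, 3 and 9 counts in KO and 0, 0 and 2 counts in WT. With 18 counts against 2, its ratio was 9.32, with a 95% counting interval of 2.23 to 82.9. With no filter on low counts in the fit, the log2 fold change of Cd3e was 2.98 ± 0.87 in edgeR (adjusted p = 0.0288). Every gene of the table had at least 10 counts in some library, and Cd3e reached 10 only in KO chow replicate 3. Its presence in the table thus depended on a KO library, and this p is no independent support.

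Both coreceptors rose. Cd4 (ENSMUSG00000023274, chromosome 6, 124864692 to 124888221, minus strand) had 30, 44 and 39 counts in KO HFCF livers and 15, 19 and 11 counts in WT HFCF livers. Its log2 fold change was 1.37 ± 0.29 (edgeR adjusted p = 0.00477). Cd8a (ENSMUSG00000053977, chromosome 6, 71373427 to 71379173, plus strand) had 31, 35 and 12 counts in KO and 10, 7 and 5 in WT. The third KO liver lay just above the highest WT liver, and the log2 fold change was 1.90 ± 0.58 (edgeR adjusted p = 0.0354). As background, some mouse dendritic cells also carry Cd4 or Cd8a, some B cells carry Cd5, and fibroblasts can carry Thy1.

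Both surface proteins, Cd5 and Thy1, rose. Cd5 (ENSMUSG00000024669, chromosome 19, 10717116 to 10739002, minus strand), which dampens receptor signals, had 14, 14 and 14 counts in KO HFCF livers and 2, 2 and 3 counts in WT HFCF livers. This was a log2 fold change of 2.58 ± 0.47 in edgeR (adjusted p = 0.00189). In every WT library of both diets Cd5 had 3 counts or fewer, at or below the floor, so its fold changes are loosely fixed. Thy1 (ENSMUSG00000032011, chromosome 9, 44043384 to 44048579, plus strand), a lipid-anchored protein of the T cell surface, had 19, 25 and 21 counts in KO and 3, 4 and 5 in WT. Its log2 fold change was 2.46 ± 0.34 (edgeR adjusted p = 0.000292), and every KO liver had at least 19 counts.

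Pdcd1 (ENSMUSG00000026285, chromosome 1, 94038305 to 94052553, minus strand) had at most 1 count in any WT library. There were 17, 18 and 10 counts in KO HFCF livers and 0, 0 and 1 count in WT HFCF livers. With 45 counts against 1, the ratio was 46.6, and its 95% counting interval ran from 7.95 to 1882 (edgeR adjusted p = 0.000715). The interval is wide, and all 3 KO livers lay above all 3 WT livers.

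Lck (ENSMUSG00000000409, chromosome 4, 129548344 to 129573641, minus strand) had 19, 37 and 22 counts in KO HFCF livers and 19, 9 and 9 counts in WT HFCF livers. After scaling for depth the groups did not overlap, at 1.24 to 2.59 CPM in KO and 0.580 to 1.08 CPM in WT, with a log2 fold change of 1.14 ± 0.34 in edgeR (adjusted p = 0.0303). Nkg7 (ENSMUSG00000004612, chromosome 7, 43437073 to 43438249, plus strand) had 17, 15 and 11 counts in KO and 6, 3 and 2 in WT. Its log2 fold change was 2.00 ± 0.50 (edgeR adjusted p = 0.0123), with each KO liver above each WT liver.

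The HFCF calls of Cd3g, Cd8a, Lck and Nkg7 depended on single libraries. Those of Cd4, Cd5, Thy1, Pdcd1 and Themis held under all alternatives that tested them. For Cd3g the adjusted p (edgeR, DESeq2 or limma voom) ranged from 0.00769 to 0.101 over 14 alternatives. In edgeR it passed 0.05 without KO HFCF replicate 1 or 2 or without WT HFCF replicate 2 or 3 (0.0635, 0.101, 0.0956 and 0.0796). For Cd8a it ranged from 0.00979 to 0.136 over 13, and the call was lost without KO HFCF replicate 1 or 2 or any WT HFCF replicate (0.114, 0.136, 0.0588, 0.0849 and 0.0991), with limma voom (0.1002) and with the replicate number as a block (0.0523). For Lck the range was 0.0169 to 0.169 over 14. The log2 fold change of Lck was 0.72 without KO HFCF replicate 2 (edgeR adjusted p = 0.169), and the call was also lost without WT HFCF replicate 2 or 3 (0.102 and 0.0955) and in a fit of the compared groups alone (0.0850). For Nkg7 the range was 0.0100 to 0.0508 over 12, with the highest value without KO HFCF replicate 1.

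**Figure D2:**
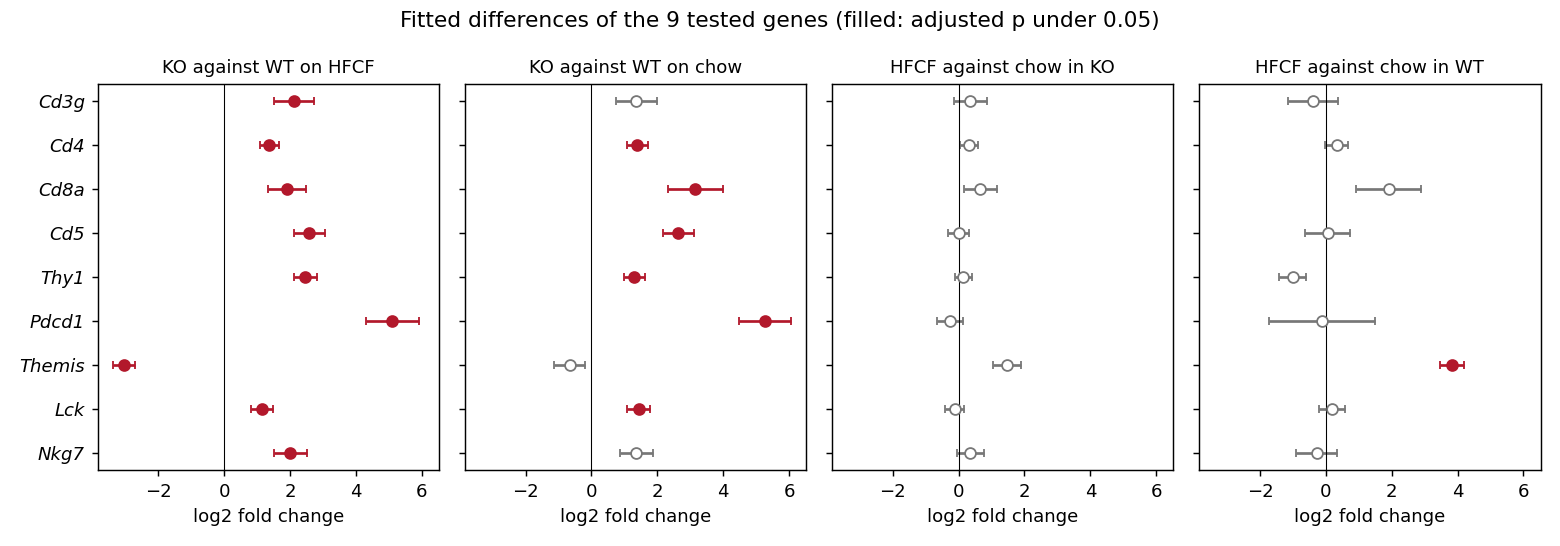
Fitted log2 fold changes of the 9 tested genes in 4 comparisons, with standard errors as whiskers; filled points have an edgeR adjusted p under 0.05. In KO against WT, 8 genes lie right of 0 on both diets and Themis lies left, at -3.04 on HFCF and -0.66 on chow; in HFCF against chow, the only filled point is Themis in WT, at 3.84.

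On chow, 6 of the 9 tested genes rose in KO livers and none fell. The 6 were Cd4, Cd8a, Cd5, Thy1, Pdcd1 and Lck. Of all genes tested, 9.72% were called higher and 5.82% lower in this comparison. The median log2 fold change was 1.40 over the 9 genes and 0.00 over all tested genes. The same limit of the filter holds here. Of the genes that passed it in both genotypes, Cd4 and Lck rose and Themis was not called. Without a multiple-test adjustment, 8 of the 9 were higher and 0 lower at an edgeR p under 0.05. DESeq2 called 6 higher and limma voom 5, and both called 0 lower.

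Pdcd1 again showed the widest gap, with 17, 14 and 27 counts in KO chow livers and 1, 0 and 0 in WT chow livers. The ratio of 58 counts to 1 was 51.0, with a 95% counting interval of 8.80 to 2048 (edgeR adjusted p = 0.000803). Cd5 had 19, 7 and 19 counts in KO and 1, 2 and 3 in WT, a log2 fold change of 2.64 ± 0.48 in edgeR (adjusted p = 0.00297). For both genes, the lowest KO liver was above the highest WT liver.

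Cd8a had 18, 5 and 31 counts in KO chow livers and 1, 1 and 3 counts in WT chow livers. The KO livers spread widely, and the log2 fold change was 3.15 ± 0.83 (edgeR adjusted p = 0.0214). Cd4 was steadier, with 30, 27 and 39 counts in KO and 7, 11 and 14 in WT, a log2 fold change of 1.40 ± 0.31 in edgeR (adjusted p = 0.00991). Thy1 had 18, 19 and 25 counts in KO and 7, 8 and 7 in WT, a log2 fold change of 1.30 ± 0.31 in edgeR (adjusted p = 0.0133). Lck had 28, 27 and 35 counts in KO and 10, 10 and 9 in WT, a log2 fold change of 1.44 ± 0.35 in edgeR (adjusted p = 0.0140). In none of these 4 genes did the groups overlap, and 19.4% of tested genes had all KO chow livers above all WT chow livers.

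Cd3g and Nkg7 did not pass the test on chow. Cd3g had 11, 12 and 36 counts in KO chow livers and 13, 2 and 5 counts in WT chow livers. Replicate 3 of KO was high and replicate 1 of WT lay within the KO range, and the log2 difference was 1.37 ± 0.62 (edgeR adjusted p = 0.152). Nkg7 had 16, 5 and 15 counts in KO and 6, 3 and 3 in WT, a log2 difference of 1.36 ± 0.51 (edgeR adjusted p = 0.0850). Cd3e, not tested, had 5, 6 and 10 counts in KO and 1, 0 and 1 in WT. Its ratio of 21 counts to 2 was 9.23, with a 95% counting interval of 2.26 to 81.2. With no filter on low counts in the fit its edgeR adjusted p was 0.0320, for a gene that is in the table only through the 10 counts of a KO chow liver.

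Some calls on chow depended on 1 library. For Cd8a the adjusted p (edgeR, DESeq2 or limma voom) ranged from 0.00272 to 0.0797 over 13 alternatives. The call was lost in edgeR without KO chow replicate 3 (0.0797) or without WT chow replicate 1, 2 or 3 (0.0694, 0.0682 and 0.05004), and with limma voom (0.0730). For Thy1 the adjusted p ranged from 0.0130 to 0.0574 over 14 and passed 0.05 in edgeR without KO chow replicate 3 (0.0542) or WT chow replicate 3 (0.0574). For Lck the range was 0.00677 to 0.0591 over 14, with the highest value without WT chow replicate 3. For Nkg7 the adjusted p ranged from 0.0452 to 0.240 over 12, with the lowest value without KO chow replicate 2. The calls of Cd4, Cd5 and Pdcd1 held in every alternative that tested them.

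Across both diets, the 6 KO libraries lay above the 6 WT libraries in CPM for 6 of the 10 genes, Cd3e, Cd4, Cd5, Thy1, Pdcd1 and Lck. In the whole table, 5.62% of genes did so. Among these 6 genes, only Cd4 and Lck passed the low-count filter in both genotypes. The 9 genes other than Themis summed to 8.83 to 15.5 CPM in KO HFCF livers and 2.71 to 3.70 CPM in WT HFCF livers. On chow the sum was 8.42 to 14.9 CPM in KO and 2.62 to 3.36 CPM in WT. The 9 genes were also set against the summed CPM of 12 pan-leukocyte genes, a sum in which genes with more reads weigh more. As a share of it, they made up 3.01% to 4.86% in KO HFCF livers and 1.60% to 1.92% in WT HFCF livers. The share was 3.15% to 5.40% in KO chow livers and 1.48% to 1.92% in WT chow livers, so it was higher in every KO liver than in every WT liver. Themis, which moved against the others, was left out of these sums. With Themis, the 10 genes summed to 12.8 to 21.3 CPM in KO HFCF livers and 34.3 to 64.8 CPM in WT HFCF livers. On chow they summed to 10.4 to 17.0 CPM in KO and 5.05 to 7.29 CPM in WT. The genes were chosen with earlier results of these data known, so the share is a description.

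Within the KO groups, single libraries were high or low for most of the 9 genes. KO chow replicate 3 had the highest CPM of its group for each of the 9, and KO HFCF replicate 3 had the lowest of its group for 7. KO HFCF replicate 2 was the highest for 6. In the WT groups no library stood out in this way: WT HFCF replicates 1 and 3 were each the highest for 4 genes and the lowest for 4, and WT chow replicate 1 was the highest for 5 and the lowest for 2. Over the 12 libraries, the Pearson correlation of log2(CPM + 0.5) between pairs of the 8 tested genes other than Themis ran from 0.69 to 0.95, with a median of 0.85 over 28 pairs. For the 8 pairs with Themis it ran from -0.69 to -0.10. These points share the libraries, their depth and the genotype difference, and the correlations are given as a description.

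Diet moved 1 of the 9 tested genes in WT livers, and that was Themis. HFCF against chow called 13.7% of all tested genes in WT, 7.76% higher and 5.90% lower, so 1 of 9 is near that share. The other 8 genes did not pass the test. Thy1 had 3, 4 and 5 counts in WT HFCF livers and 7, 8 and 7 counts in WT chow livers, a log2 difference of -1.01 ± 0.41 (edgeR adjusted p = 0.154), and Cd8a had 10, 7 and 5 counts against 1, 1 and 3, a log2 difference of 1.91 ± 0.97 (edgeR adjusted p = 0.218). In both genes the groups did not overlap. Among all tested genes, 15.8% had all WT HFCF livers above all WT chow livers and 15.3% had them all below. For the remaining 6 the groups overlapped, and log2 differences ran from -0.40 for Cd3g to 0.34 for Cd4. Cd3e, not tested, had 2 counts in WT HFCF livers and 2 in WT chow livers.

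In KO livers, HFCF against chow called 0 of the 9 tested genes with edgeR, where 2.65% of all tested genes were called, 1.47% higher and 1.18% lower. At an unadjusted p under 0.05 edgeR gave 1 gene, Themis. DESeq2, which gave an adjusted p to only 3 of the 9, called Themis (0.0373), and limma voom called 0. The other 8 genes overlapped between the diets in KO, with log2 differences of -0.27 for Pdcd1 to 0.65 for Cd8a.

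Themis (ENSMUSG00000049109, chromosome 10, 28668360 to 28883818, plus strand) followed a pattern unlike the other 9 genes. Its counts were 118, 42 and 71 counts in KO HFCF livers and 1074, 446 and 521 counts in WT HFCF livers. It had 29, 28 and 32 counts in KO chow livers and 55, 41 and 28 counts in WT chow livers. The WT HFCF libraries thus stood well above the other 9 libraries, and KO HFCF replicate 1 was the highest of those 9.

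In WT livers Themis rose on HFCF by a log2 fold change of 3.84 ± 0.36 in edgeR (adjusted p = 3.00e-05). On HFCF it fell in KO livers, with a log2 fold change of -3.04 ± 0.33 in edgeR (adjusted p = 4.67e-05). Both calls held under all alternatives run. On chow, the groups overlapped and the log2 difference between KO and WT was -0.66 ± 0.48 (edgeR adjusted p = 0.379). In KO livers the log2 difference between HFCF and chow was 1.47 ± 0.44, with all 3 HFCF livers above all 3 chow livers (edgeR adjusted p = 0.0862, range 0.0196 to 0.319 over 14 alternatives).

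The test of whether the diet difference itself depended on genotype called 0 of the 9 genes with edgeR, where 0.373% of all tested genes were called higher and 0.421% lower. At an unadjusted p under 0.05 edgeR gave 2 genes, Themis and Thy1, while DESeq2 called 1, Themis, of the 6 to which it gave an adjusted p, and limma voom called 0. For Themis the log2 interaction was -2.38 ± 0.59 (edgeR adjusted p = 0.0821, range 0.0192 to 0.182 over 19 alternatives). It passed without KO HFCF replicate 1 (edgeR adjusted p = 0.0465), the KO liver with the highest Themis count. For Thy1 the log2 interaction was 1.15 ± 0.49 (edgeR adjusted p = 0.340).

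**Figure D3:**
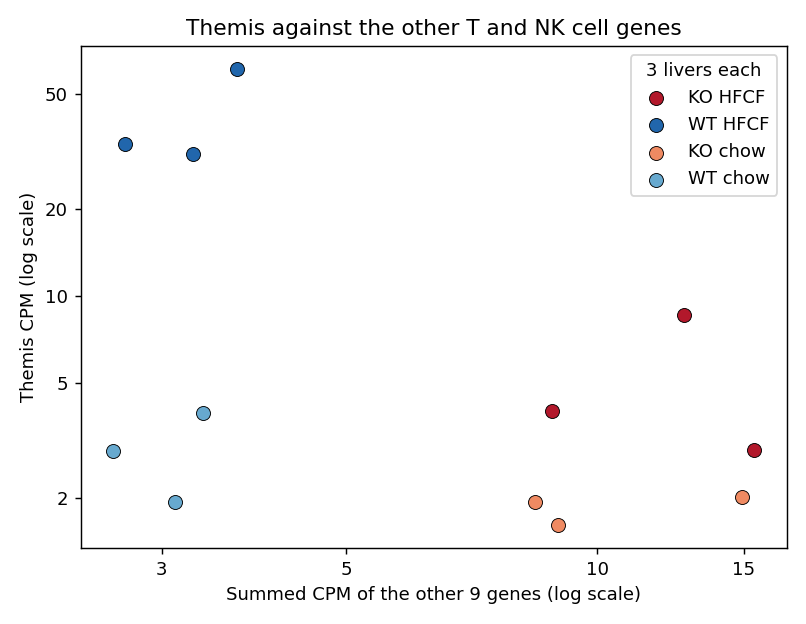
Themis in CPM (vertical, log scale) against the summed CPM of the other 9 genes (horizontal, log scale), one point per liver, colored by group. The KO livers lie right of the WT livers, at 8.42 CPM or more against 3.70 CPM or less, and the WT HFCF livers lie apart at the top, at 31.0 to 61.1 CPM.

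Themis, known as a T cell gene, was set against the receptor chain Cd3g within each library. The ratio of Themis FPKM to Cd3g FPKM was 0.166 to 0.636 in KO HFCF livers and 12.7 to 17.6 in WT HFCF livers. It was 0.105 to 0.312 in KO chow livers and 0.501 to 2.43 in WT chow livers. Cd3g had 10, 3 and 4 counts in WT HFCF livers and 13, 2 and 5 in WT chow livers, so the WT ratios carry a large counting error. Themis took 15.97% to 40.3% of the counts of the 10 genes in KO HFCF livers, 90.5% to 94.3% in WT HFCF livers, 11.9% to 18.7% in KO chow livers and 38.4% to 53.9% in WT chow livers. Which cells carried the Themis transcripts was not tested.

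The table lists a gene on the opposite strand of the Themis locus, 4930519F09Rik (chromosome 10, 28880921 to 28923507, minus strand), whose exons share 153 bases with those of Themis. It had 3, 1 and 2 counts in KO HFCF livers and 50, 18 and 23 counts in WT HFCF livers. On chow it had 2, 1 and 0 counts in KO and 2, 1 and 2 in WT. Its log2 fold change was -3.76 ± 0.52 for KO against WT on HFCF (edgeR adjusted p = 0.000247) and 3.91 ± 0.54 for HFCF against chow in WT (edgeR adjusted p = 0.000483). The strand setting of the counting was not given in the sources used here, so reads of the 2 genes cannot be told apart there. Its highest count, 50, came from the library in which Themis had 1074. Ptprk, the nearest protein-coding neighbour on the other side, 70962 bases away, stood at 65.7 to 90.5 CPM over the 12 libraries and was not called in any of the 4 comparisons of genotype or diet.

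Other genes of T and NK cells were read from lists in the same fit. Their genes went through the same low-count filter. Which of them passed it through KO libraries alone was not counted, so the list counts may lean towards KO. For each list below, the shares of all tested genes called in KO against WT were 10.6% higher and 8.52% lower on HFCF. On chow they were 9.72% and 5.82%. Of 15 tested genes of the T cell receptor complex and its signalling, 11 rose in KO livers on HFCF and 10 on chow, and in both comparisons none fell. Fyb, an adaptor of T cell adhesion, stood at 7.76 to 10.7 CPM in KO HFCF livers and 4.799 to 6.14 CPM in WT HFCF livers, with a log2 fold change of 0.79 ± 0.18 in edgeR (adjusted p = 0.00731). Cd2, an adhesion receptor, stood at 0.872 to 1.69 CPM in KO and 0.278 to 0.398 CPM in WT, with a log2 fold change of 1.76 ± 0.43 in edgeR (adjusted p = 0.0106). Cd247, the zeta chain of the receptor, and Lcp2, an adaptor downstream of it, rose by 0.80 ± 0.19 and 0.84 ± 0.20 in log2 (edgeR adjusted p = 0.00816 and 0.00824). The median log2 fold change of the list was 1.30 on HFCF and 1.24 on chow, and Zap70, the kinase that binds the zeta chain, rose on HFCF (0.62 ± 0.17, edgeR adjusted p = 0.0201) but stood at 0.02 ± 0.16 on chow (edgeR adjusted p = 0.964). No fall was called by DESeq2 or limma voom either, and none had an unadjusted p under 0.05. Named after their values were seen, Trac, Trbc2, Rasgrp1 and Prkcq were the 4 not called on HFCF. For the receptor chains Trac and Trbc2 the edgeR adjusted p was 0.0635 and 0.0857 there. On chow both rose (edgeR adjusted p = 0.0283 and 0.0338), though the Trac groups overlapped. Which cells carried the transcripts of this list was not tested.

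Of 17 tested genes of T cell identity, costimulation and homing, 8 rose and 1 fell in KO on HFCF, and 11 rose on chow. Itgal, an integrin chain, stood at 21.0 to 22.8 CPM in KO HFCF livers and 9.67 to 13.5 CPM in WT HFCF livers, with a log2 fold change of 0.98 ± 0.14 in edgeR (adjusted p = 0.000415). Cxcr3, the receptor for Cxcl9 and Cxcl10, rose by 1.80 ± 0.42 in log2 (edgeR adjusted p = 0.00861). The gene that fell was S1pr1, named after its value was seen, a receptor that endothelial cells carry as well, with a log2 fold change of -0.46 ± 0.12 in edgeR (adjusted p = 0.0136).

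Of 7 tested inhibitory receptor and exhaustion genes, 2 rose and 1 fell in KO on HFCF, and 3 rose and 1 fell on chow. Over all tested genes 10.6% rose and 8.52% fell on HFCF, and 9.72% and 5.82% on chow. These few calls were not tested against those shares. The inhibitory receptor Btla rose on HFCF by 1.21 ± 0.31 in log2 (edgeR adjusted p = 0.0134), and the ectoenzyme Entpd1, which endothelial cells also carry, by 0.58 ± 0.17 (edgeR adjusted p = 0.0249). Tox, listed here as a transcription factor of exhausted T cells, fell in KO on both diets. It stood at 1.96 to 3.99 CPM in KO HFCF livers and 10.6 to 11.9 CPM in WT HFCF livers, a log2 fold change of -1.89 ± 0.19 in edgeR (adjusted p = 2.63e-05). On chow the log2 fold change of Tox was -1.23 ± 0.18 (edgeR adjusted p = 0.000792), and in both comparisons the groups did not overlap. In the same WT HFCF livers Cd3g stood at 0.209 to 0.569 CPM, not scaled for gene length. Which cells carried the Tox transcripts was not tested.

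Of 11 tested NK and cytotoxic lymphocyte genes, 7 rose in KO on HFCF and 2 on chow, and in both comparisons none fell. The share of all tested genes called higher was 10.6% and 9.72%. Named after their values were seen, Klrd1, Itga2, Il18rap and Il12rb2 were the 4 not called on HFCF. Klrb1c was not tested, and 9 of the 25 genes of the list, Ncr1 among them, were absent from the table. The parts of NK cells and of cytotoxic T cells were not tested. Il2rb, a receptor chain for the cytokines that sustain NK cells, stood at 3.56 to 4.27 CPM in KO HFCF livers and 0.580 to 1.93 CPM in WT HFCF livers, with a log2 fold change of 1.67 ± 0.33 in edgeR (adjusted p = 0.00350). Klrk1, the activating receptor NKG2D, rose by 1.43 ± 0.30 in log2 (edgeR adjusted p = 0.00457), the chemokine Ccl5 by 1.72 ± 0.40 (edgeR adjusted p = 0.00797) and the protease Ctsw by 1.56 ± 0.36 (edgeR adjusted p = 0.00854). On chow Ccl5 rose by 2.29 ± 0.46 (edgeR adjusted p = 0.00506), while Il2rb, Klrk1 and Ctsw had log2 differences of 0.91 ± 0.32, 0.83 ± 0.32 and 1.06 ± 0.39 (edgeR adjusted p = 0.0682, 0.0915 and 0.0789). At an unadjusted p under 0.05, 1 gene of the list was lower on chow and 0 on HFCF, and DESeq2 and limma voom called 0 lower. Gzmb, a granule protease, was called higher on HFCF in KO, at 0.900 to 1.19 CPM in KO HFCF livers and 0.0690 to 0.441 CPM in KO chow livers (log2 fold change 2.11 ± 0.45, edgeR adjusted p = 0.0227). DESeq2, which gave an adjusted p to 4 of the 11 genes there, called 0 higher, and limma voom called 1. In WT all HFCF livers were above all chow livers for Gzmb, with a log2 difference of 1.53 ± 0.59 (edgeR adjusted p = 0.103), and the interaction was 0.58 ± 0.84 (edgeR adjusted p = 0.841).

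Diet in WT livers called 1 of 15 genes of the receptor list and 1 of 11 of the NK list, both lower on HFCF, where 5.90% of all tested genes were called lower. Limma voom called neither direction in the receptor list, and DESeq2 neither in the NK list. Zap70 stood at 8.96 to 9.88 CPM in WT HFCF livers and 10.2 to 16.8 CPM in WT chow livers, a log2 difference of -0.56 (edgeR adjusted p = 0.0420). For Il12rb2, a receptor chain for interleukin 12, the log2 difference was -0.64 (edgeR adjusted p = 0.0307).

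Of 15 tested ligands and attractants of these cells, 7 rose in KO on each diet. On HFCF, Cd274, the ligand of PD-1, stood at 5.51 to 9.23 CPM in KO livers and 1.60 to 5.06 CPM in WT livers, with a log2 fold change of 1.35 ± 0.35 in edgeR (adjusted p = 0.0163). On chow it rose by 1.48 ± 0.42 in log2 (edgeR adjusted p = 0.0288). Cd86, a costimulatory ligand, rose by 1.04 ± 0.19 on HFCF and 0.76 ± 0.21 on chow (edgeR adjusted p = 0.00219 and 0.0275), and Cxcl10, a ligand of Cxcr3, by 1.57 ± 0.38 and 1.61 ± 0.46 (edgeR adjusted p = 0.0109 and 0.0322). Cxcl9, another ligand of Cxcr3, had a log2 difference of 1.23 ± 0.46 on HFCF that did not pass (edgeR adjusted p = 0.0816) and rose on chow by 1.86 ± 0.54 (edgeR adjusted p = 0.0333), where the groups overlapped.

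**Figure D4:**
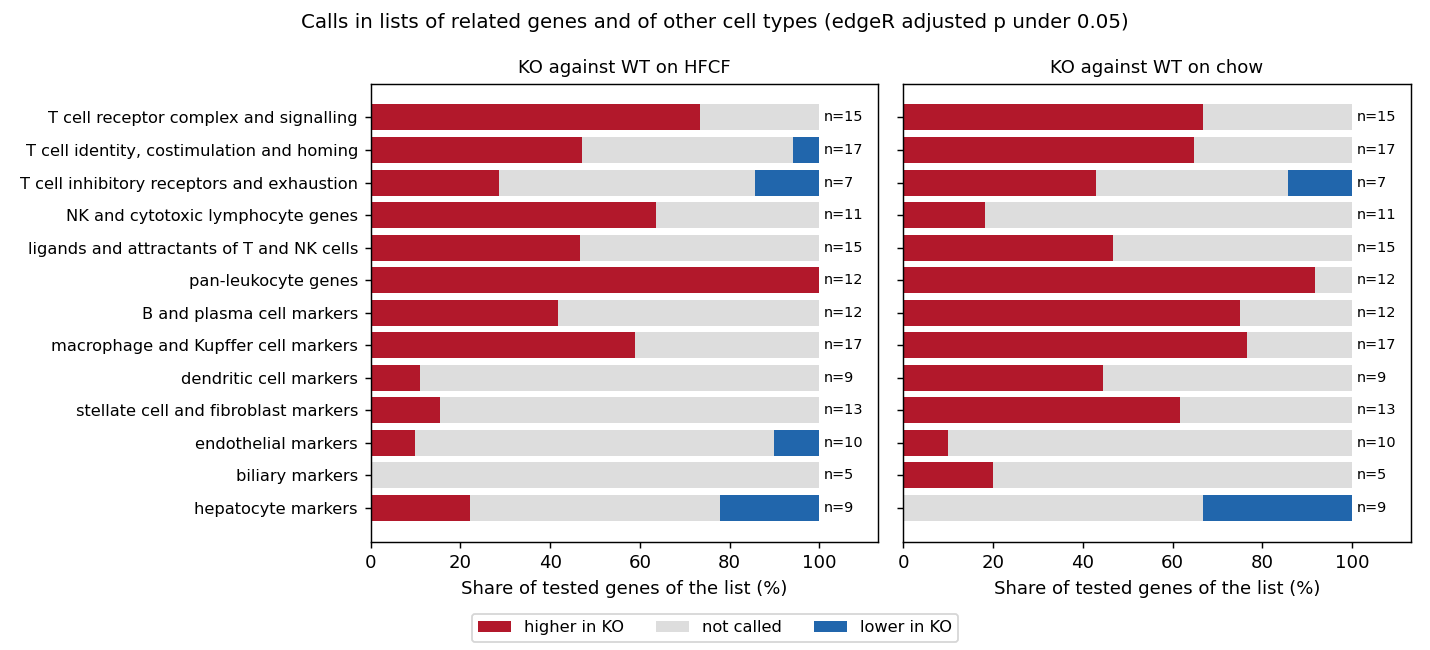
Share of the tested genes of each list that were called higher (red), called lower (blue) or not called (grey) in KO against WT, on HFCF (left panel) and on chow (right panel); n is the number of tested genes of the list. Calls higher in KO made up 11 of 15 and 10 of 15 genes of the T cell receptor list, and 12 of 12 and 11 of 12 pan-leukocyte genes, on HFCF and on chow. Over all tested genes the share was 10.6% and 9.72%.

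Markers of other blood cells moved in the same direction. Of 12 pan-leukocyte genes, all 12 rose in KO on HFCF and 11 on chow, and they summed to 293 to 318 CPM in KO HFCF livers, 170 to 214 CPM in WT HFCF livers, 267 to 277 CPM in KO chow livers and 165 to 177 CPM in WT chow livers. Of 12 tested B and plasma cell markers, 5 rose on HFCF and 9 on chow. Igkc, an immunoglobulin light chain, stood at 123 to 149 CPM in KO HFCF livers and 0.773 to 1.42 CPM in WT HFCF livers. The B and plasma cell list summed to 449 to 489 CPM in KO HFCF livers, 177 to 219 CPM in WT HFCF livers, 582 to 782 CPM in KO chow livers and 214 to 241 CPM in WT chow livers. Of 17 macrophage and Kupffer cell markers, 10 rose on HFCF and 13 on chow, with sums of 1094 to 1151 CPM in KO HFCF livers, 444 to 952 CPM in WT HFCF livers, 806 to 852 CPM in KO chow livers and 486 to 546 CPM in WT chow livers. No marker of these 3 lists was at 0 in all 6 WT libraries. Their part in the differences of the 10 genes was not tested.

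Dendritic cells and stellate cells can carry some of the 10 genes, and their markers were counted too. The share of all tested genes called lower in KO was 8.52% on HFCF and 5.82% on chow, and the share called higher was 10.6% and 9.72%. Of 9 tested dendritic cell markers, 1 rose in KO on HFCF, near that share, and 4 on chow, with sums of 35.4 to 48.5 CPM in KO HFCF livers, 24.8 to 47.9 CPM in WT HFCF livers, 32.2 to 36.9 CPM in KO chow livers and 19.8 to 22.3 CPM in WT chow livers. Of 13 stellate cell and fibroblast markers, 2 rose on HFCF, also near it, and 8 on chow, with sums of 710 to 952 CPM in KO HFCF livers, 767 to 922 CPM in WT HFCF livers, 839 to 851 CPM in KO chow livers and 567 to 689 CPM in WT chow livers. Thy1, Cd4 and Cd8a rose on both diets, and the part of these cells was not tested. Of 9 hepatocyte markers, 2 rose and 2 fell in KO on HFCF, and 3, Cps1, Ass1 and Cyp2e1, fell on chow. They summed to 34240 to 37045 CPM in KO HFCF livers, 32052 to 38614 CPM in WT HFCF livers, 30692 to 37830 CPM in KO chow livers and 42388 to 45040 CPM in WT chow livers, and their part in the results was not tested.

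The genes whose log2(CPM + 0.5) was most like the mean of the 9 tested genes over the 12 libraries were Irgm1, Trim21, Ly6c2, Gm12185, Sema7a, Tnfsf8, Trps1 and Parp14, with Pearson correlations of 0.96 to 0.98. Irgm1 had the highest, at 0.98, and stood at 82.3 to 118 CPM in KO HFCF livers, 44.4 to 56.8 CPM in WT HFCF livers, 71.4 to 102 CPM in KO chow livers and 36.5 to 50.3 CPM in WT chow livers. The 12 points share the genotype difference, so this likeness is a description.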

How the data were processed

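The table holds whole-number counts per gene and library, deposited by the authors with FPKM values, per the file headers. Count over length and library total gives each FPKM. Per the labels' protocols, RNA was purified with Trizol and columns, depleted of ribosomal RNA and sequenced from stranded libraries. Reads were placed on mm10, per the submitters' processing notes. Which aligner, counter, strand setting and annotation were used is not given in the sources used here. Library pairs within groups differed beyond sampling noise (chi-square per degree of freedom 11.2 to 34.4).

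Every gene of the deposited table had at least 10 counts in some library. Genes passing filterByExpr (minimum count 10, minimum total 15) numbered 14736, and 1110 were removed. TMM scaling and the quasi-likelihood test of edgeR 4.0.16 (R 4.3.3) were applied to 12 libraries as 4 group means. Calls were made at a Benjamini-Hochberg adjusted p under 0.05 over all tested genes, per comparison. P-values measure only the spread between these libraries. FPKM values entered no test. The procedure was tested on simulated counts.

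The 10 genes and the lists were chosen with earlier results of these data known. Named list genes were up to 4 per list with the lowest adjusted p in HFCF against chow in WT or in KO against WT on HFCF. The 8 genes most like the mean of the tested genes, with and without Themis, were also named. A gene that this rule named is not reported here. Alternatives tried were scaling by RLE or upper quartile, no filter, a filter of 1 CPM in 3 libraries, the replicate number as a block, DESeq2 1.42.0, limma voom (limma 3.58.1), the compared groups alone, and each library left out. Every range over alternatives includes the adjusted p of DESeq2 and of limma voom where they gave one. Coordinates are from the GENCODE annotation of GRCm38. Python 3.11.15 with pandas 2.3.3 and matplotlib 3.10.9 drew the figures.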

Additional observations from a re-analysis of the deposited data

How the results depend on the processing

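Over 644 recomputed values of the 9 tested genes in 5 comparisons, 24 calls were lost and 6 gained. No called value changed sign. Uncalled values changed sign 40 times and none was then called. Of 16 calls, 9 held under all alternatives that tested the gene and 7 were lost under at least 1, as named beside the results. For KO against WT on HFCF, a fit of the compared groups alone called 5 genes: its filter left 6 to test, without Cd8a, Pdcd1 and Nkg7, and Lck was tested but not called (edgeR adjusted p = 0.0850, range 0.0169 to 0.169 over 14 alternatives). For KO against WT on chow, leaving out 1 library gave 3 to 7 called genes, with 3 without WT chow replicate 3. For HFCF against chow in KO, 1 gene, Themis, was called with the replicate block and with DESeq2, against 0. For the interaction, 1 gene, Themis, was called with the replicate block and with DESeq2, and 0 to 1 with 1 library left out, against 0; the cause was not tested. Without WT chow replicate 1 the log2 fold change of Pdcd1 on chow was 7.22, and without WT HFCF replicate 3 that on HFCF was 6.95; each left WT at 0 counts.

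The labels do not say whether same-numbered livers of different groups are related. Their correlations of deviations ran from -0.21 to 0.23, with 5 of 18 pairs over 0.1, and do not settle it. Between WT HFCF and WT chow they were 0.099, 0.232 and 0.132. The replicate block also ended the call of Cd8a on HFCF (edgeR adjusted p = 0.0523, range 0.00979 to 0.136 over 13 alternatives). Over all tested genes, HFCF against chow in WT called 2013 and 1100 to 1303 without WT HFCF replicate 1 or WT chow replicate 1 or 3. In KO it called 390, against 656 with DESeq2, 603 with the compared groups alone and 157 to 254 without KO HFCF replicate 1 or 2 or KO chow replicate 1 or 2. KO against WT on chow called 2289, against 1442 without KO chow replicate 2 and 1152 without WT chow replicate 3. The interaction called 117, against 344 with DESeq2 and 11 to 46 in 9 of the fits that left out 1 library. DESeq2 called 7 of 15 T cell receptor genes higher in KO on HFCF, against 11, limma voom called 1 NK gene higher on chow, against 2, and 2 dendritic cell markers, against 4. Depth limits the report: Cd3e and Pdcd1 had 0 to 2 counts in each WT library. Cd5 had 1 to 3 counts in each WT library, and Cd8a 1 to 3 in each WT chow library.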

Other observations

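Chosen after its values were seen, the pattern of Themis was also set against all other tested genes. The genes with the highest Pearson correlation to Themis over the 12 libraries were Hnmt (0.98), 4931406C07Rik, G0s2, its antisense neighbour 4930519F09Rik, Scd1, Lect2, Lass2 and 4930485B16Rik, at 0.96 to 0.98. Scd1, a desaturase of fatty acid synthesis, stood at 4310 to 9602 CPM in KO HFCF livers, 18412 to 33771 CPM in WT HFCF livers, 3527 to 4897 CPM in KO chow livers and 3047 to 4923 CPM in WT chow livers. G0s2, an inhibitor of lipolysis, stood at 53.1 to 147 CPM in KO HFCF livers, 280 to 403 CPM in WT HFCF livers, 53.6 to 59.4 CPM in KO chow livers and 75.8 to 96.3 CPM in WT chow livers. Hnmt, which breaks down histamine, fell in KO on HFCF with a log2 fold change of -1.24 ± 0.11 in edgeR (adjusted p = 1.09e-05) and rose with HFCF in WT by 1.499 ± 0.117 (edgeR adjusted p = 6.24e-06). Over these 8 genes the edgeR adjusted p was 0.0537 to 0.637 for HFCF against chow in KO and 0.137 to 0.935 for KO against WT on chow. The 12 points share libraries and groups, and the likeness is a description.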
